A study of Mus musculus with 2 samples.

Results

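Antisense noncoding genes are transcribed from the strand opposite to another gene, overlapping it or starting close to it. In heart tissue of young mice, 64 of 3064 such genes (2.09%, 95% Wilson interval 1.64 to 2.66%) were expressed at 2 TPM or more in both libraries, out of 55536 annotated genes. TPM, a measure of transcript level, corrects a gene's reads for its length and for the size of the library. The genes were chosen by annotation and by their measured TPM: at least 1 transcript of the type antisense, no protein-coding or lincRNA transcript, and 2 TPM (the limit) in each library. Their levels are therefore a description. The long imprinting antisense RNAs Tsix, Kcnq1ot1 and Airn were set aside, at 0.85 and 0.57, 0.71 and 0.59, and 13.2 and 13.5 TPM in replicates 1 and 2. The tissue came from female B6CASTF1/J mice, which descend from a cross of the strains C57BL/6J and CAST/EiJ, aged 14 days, with no treatment named in the labels. Total RNA (300 ng a library, with ERCC spike-ins) was sequenced in 2 libraries of 1 group, so no groups were compared and no test was made. Both libraries carry 1 donor label and a shared description that can be read as 3 pooled females, while the tissue descriptions are numbered 03 and 04. Whether the libraries come from separate animals is not settled. The spread between the libraries may thus be partly technical.

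Antisense RNAs are a mixed class. Some arise at a promoter that also fires in the other direction, some run through a neighbouring gene and can hinder or assist its transcription, and some act as RNAs away from their locus. In heart they are known mainly through Mhrt at the myosin heavy chain genes and Hand2os1 at Hand2. Most such RNAs are made at low levels and many are cleared quickly in the nucleus by the RNA exosome.

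The libraries held 36197643 and 34358598 expected counts in annotated genes in replicates 1 and 2. Of these, 24233 and 22815 (0.0669% and 0.0664%) fell in the 64 genes, with a median of 134 counts a gene. All 8 cardiomyocyte markers were at 1 TPM or more, with medians of 3727 and 3796 TPM. No lymphocyte marker of 8 reached 1 TPM, with sums of 3.91 and 2.20 TPM. Lung epithelium markers summed to 186 and 12.2 TPM (6 of 10 at a mean of at least 1 TPM, none at 0 in both), so replicate 1 held more of them. Macrophage markers summed to 84.3 and 65.7 TPM. In bulk tissue, fewer cells of a type and less RNA per cell cannot be told apart.

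Promoter windows of the genes were read from RefSeq (GRCm38.p6), from 250 bases before to 50 after a start. A window was found for 39 genes, and for 28 its start lay within 200 bases of the start used here. The windows printed here belong to the genes the results turn on: 2 of the highest genes beside sarcomere genes (C130080G10Rik and Mhrt), the high gene with a TATA-like motif (Atcayos), and 3 genes that start back to back with a coding gene (Hand2os1, Map2k3os and 2810001G20Rik). Each reads in the direction of the antisense gene. Capitals mark the bases from the start of the coding gene to the start of the antisense gene in Hand2os1, Map2k3os and 2810001G20Rik, and the motifs TATAAA and CCGCCC (the reverse complement of GGGCGG) in Atcayos. The windows of C130080G10Rik (chr2:114054146-114054445, plus strand) and Mhrt (chr14:54968537-54968836, plus strand) held none of the 3 motifs searched and have no capitals. The others lie at chr10:81194441-81194740 (plus), chr8:57320810-57320983 (minus), chr11:60931818-60932033 (minus) and chr11:64079468-64079533 (plus).
C130080G10Rik: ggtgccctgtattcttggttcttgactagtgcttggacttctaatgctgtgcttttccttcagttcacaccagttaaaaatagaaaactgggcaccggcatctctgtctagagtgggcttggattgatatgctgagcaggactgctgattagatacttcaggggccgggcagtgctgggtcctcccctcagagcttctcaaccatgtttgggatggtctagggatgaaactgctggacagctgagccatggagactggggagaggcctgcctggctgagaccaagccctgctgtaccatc
Mhrt: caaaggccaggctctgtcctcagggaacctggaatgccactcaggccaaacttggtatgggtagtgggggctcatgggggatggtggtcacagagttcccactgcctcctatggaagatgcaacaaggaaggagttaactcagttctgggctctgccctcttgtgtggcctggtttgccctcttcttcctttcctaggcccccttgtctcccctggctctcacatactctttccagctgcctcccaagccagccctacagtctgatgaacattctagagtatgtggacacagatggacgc
Atcayos: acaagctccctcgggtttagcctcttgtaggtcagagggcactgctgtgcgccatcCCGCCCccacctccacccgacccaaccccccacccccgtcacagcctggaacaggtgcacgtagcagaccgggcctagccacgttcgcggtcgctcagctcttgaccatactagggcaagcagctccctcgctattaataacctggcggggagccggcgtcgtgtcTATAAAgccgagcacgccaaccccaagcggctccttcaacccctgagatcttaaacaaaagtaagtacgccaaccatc
Hand2os1: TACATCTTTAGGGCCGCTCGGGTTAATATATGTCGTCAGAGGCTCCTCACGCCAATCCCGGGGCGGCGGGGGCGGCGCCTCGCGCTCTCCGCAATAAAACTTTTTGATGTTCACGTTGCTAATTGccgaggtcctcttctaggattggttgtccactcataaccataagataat
Map2k3os: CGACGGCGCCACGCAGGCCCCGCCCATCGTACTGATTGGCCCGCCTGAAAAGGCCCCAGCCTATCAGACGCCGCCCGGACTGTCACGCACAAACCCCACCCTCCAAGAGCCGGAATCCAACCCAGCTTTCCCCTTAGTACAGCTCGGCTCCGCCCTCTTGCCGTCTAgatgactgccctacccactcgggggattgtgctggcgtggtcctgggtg
2810001G20Rik: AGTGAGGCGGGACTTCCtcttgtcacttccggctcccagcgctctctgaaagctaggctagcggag

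Of the 5 genes with the highest levels, C130080G10Rik, Hand2os1 and Mhrt lay beside or across heart genes. C130080G10Rik (chromosome 2, 114054335 to 114064868, mm10, plus strand) led, at 90.9 and 93.9 TPM in replicates 1 and 2 (92.4 ± 2.12, SD, n = 2), with 3578 and 3467 expected counts. It starts 787 bases from a start of Actc1, cardiac alpha-actin, and runs away from it. Actc1 itself had 6656 and 7208 TPM. A second, longer antisense gene at the locus, A530058N18Rik (114013563 to 114068324), spans all of Actc1 and had 2.15 and 2.27 TPM. These 2 genes share 1001 exonic bases on 1 strand, and neither had whole expected counts, but their counts add up to 3655 and 3546, so reads were divided between them and the lower level depends on that division.

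Another 3 of the 64 genes lay at the myosin heavy chain genes on chromosome 14. Myh6 encodes the alpha chain, the main form of the adult mouse ventricle, and Myh7 the beta chain of the fetal heart. Mhrt (54968678 to 54974349, plus strand) starts 1751 bases from the Myh6 start, runs the other way and covers the 3' end of Myh7. In mouse, Mhrt is known to bind the chromatin remodeller Brg1 and to limit hypertrophy. Mhrt had 49.5 and 42.4 TPM in replicates 1 and 2 (46.0 ± 5.06, SD, n = 2), against 915 and 895 TPM for Myh7 and 10296 and 10478 TPM for Myh6. Gm31251 (54979393 to 54991601), inside Myh7, had 30.3 and 23.3 TPM (26.8 ± 4.97). Both were higher in replicate 1, and their deposited intervals did not overlap between the libraries. How often this occurred among all genes at the limit was not counted. Gm29015 (54973029 to 54973359) is a short gene of 207 exonic bases within the spans of Mhrt and Myh7, listed at 2.31 and 2.05 TPM from 7 and 6 counts.

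**Figure D1:**
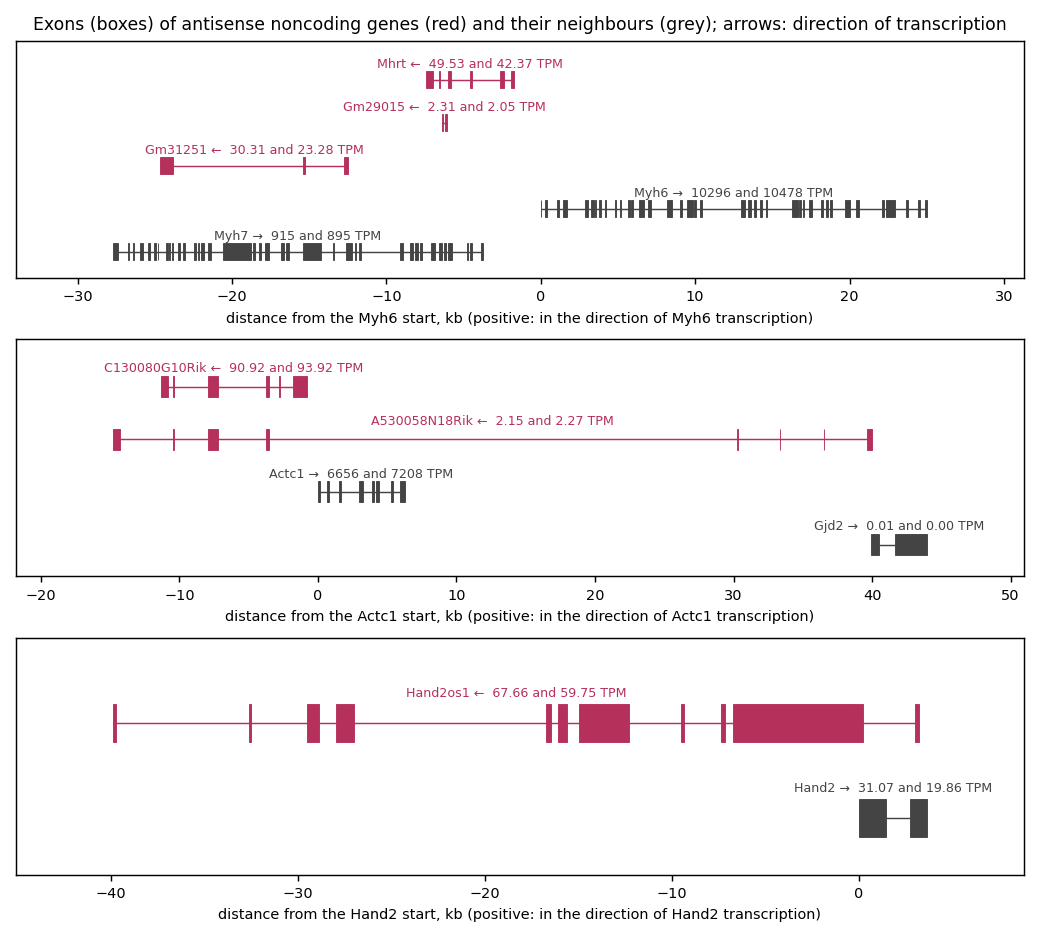
Gene maps of the Myh6, Actc1 and Hand2 loci, drawn to scale in kb from the start of the named gene; boxes are merged exons, arrows give the direction of transcription, and the numbers are TPM in replicates 1 and 2. Mhrt, C130080G10Rik and most of Hand2os1 extend to the left of the start of the coding gene, away from it.

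A calcium handling locus held a further high gene. D830005E20Rik (chromosome 10, 33222345 to 33256418, minus strand) lies inside Trdn, the gene of triadin, a protein of the calcium release complex. It had 16.2 and 15.5 TPM, against 137 and 148 TPM for Trdn, and shares no exonic base with it. Trdn was 8.46-fold and 9.57-fold above D830005E20Rik, which was within 1.2-fold between the libraries. Of the 24 sarcomere and calcium handling genes on the list used here, which does not hold Trdn, Actc1, Myh6 and Myh7 were among those with at least 1 of the 64 genes overlapping them or starting within 2000 bases. Gm10435 was also among the 20 highest genes, at 23.9 and 25.8 TPM.

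Hand2os1 was the highest antisense gene at a transcription factor. Hand2 encodes a basic helix-loop-helix factor needed to form the right ventricle, and Hand2os1 (chromosome 8, 57281117 to 57324233, minus strand) is known in mouse as a regulator of that locus. Hand2os1 had 67.7 and 59.8 TPM in replicates 1 and 2 (63.7 ± 5.59, SD, n = 2), against 31.1 and 19.9 TPM for Hand2. The antisense gene was thus 2.18-fold and 3.01-fold above Hand2. On expected counts the order turned round in replicate 1 only, so the antisense gene was higher in replicate 2 alone. Hand2os1 had 1599 and 1325 counts and Hand2 1967 and 1214 in replicates 1 and 2. The nearest annotated starts of the 2 genes lie 124 bases apart, in the window printed above, which held CCAAT and GGGCGG. The outermost annotated 5' end of Hand2os1 lies inside Hand2, 3250 bases past the Hand2 start. Hand2os1 has 37 annotated transcripts, the most of the 64 genes. Its leading transcript, Hand2os1-203, held 30.4% ± 7.94 of its TPM (SD, n = 2) in the first quantification and 3.75% in the second, where Hand2os1-205 led. Its total was 88.2 and 84.1 TPM there, so the gene level was less dependent on the program than the transcript shares. Among other transcription factor loci, Sp3os, divergent from Sp3, had 9.59 and 11.9 TPM, against 18.3 and 18.7 TPM for Sp3. Gm15417 at Zbtb7b had 18.6 and 20.99 TPM, against 11.4 and 11.4 TPM for Zbtb7b. Gm13111, which RefSeq lists under the synonym Prdm16os, had 2.53 and 3.34 TPM, against 7.53 and 8.15 TPM for Prdm16.

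Several other high genes were above a gene on the opposite strand, which was quiet in each case but that of Tug1. Gm15543 (chromosome 6, 145182275 to 145187630, plus strand), inside Casc1, had 80.0 and 62.0 TPM (71.0 ± 12.7, SD, n = 2), against 0.36 and 0.43 TPM for Casc1. Atcayos (chromosome 10, 81194609 to 81210877, plus strand) spans Nmrk2, a nicotinamide riboside kinase of muscle, and had 38.2 and 35.9 TPM, against 1.52 and 1.60 TPM for Nmrk2. Gm47547, inside Dydc2, had 16.1 and 18.7 TPM, and Dydc2 was listed at 0 in both libraries. 9330159M07Rik had 9.23 and 7.41 TPM, against 0.03 and 0 TPM for Trim43c. Tug1 (chromosome 11, 3639785 to 3649673, minus strand), a widely expressed noncoding RNA needed for male fertility in mouse, was even between the libraries at 25.5 and 24.96 TPM, against 11.5 and 11.1 TPM for Morc2a, a chromatin silencing ATPase that starts 86 bases away. 2310009A05Rik, which RefSeq lists under the synonym Pigbos1, had 10.5 and 12.6 TPM, against 1.16 and 1.36 TPM for Pigb, a mannosyltransferase of GPI anchor synthesis. The human gene of that name encodes a small mitochondrial membrane protein, while the annotation used here gives the mouse gene no coding transcript.

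The rest of the 20 highest genes were mostly next to genes of moderate level. Gm11716, inside Pitpnc1, had 15.0 and 16.7 TPM, against 28.6 and 31.1 TPM for this lipid transfer gene. 1700120C14Rik had 11.9 and 12.3 TPM, against 25.8 and 26.5 TPM for Mcrs1. Gm13375 had 11.6 and 11.9 TPM, against 38.4 and 36.8 TPM for Arhgap21, which starts 173 bases away. In these pairs the antisense gene was the lower one in both libraries. 2310040G07Rik was above Ppat, an enzyme of purine synthesis, at 8.84 and 7.90 TPM against 5.67 and 6.38 TPM.

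Small RNAs are annotated inside 5 of the 64 genes, 9330159M07Rik (1 small RNA, levels given above) and the 4 described here. Zfas1 (chromosome 2, 167062934 to 167065862, plus strand) overlaps the 5' end of the antiviral helicase gene Znfx1 with its own 5' end. It hosts Snord12 and 2 more small RNAs. Zfas1 had 12.7 and 11.2 TPM, against 13.4 and 13.7 TPM for Znfx1. Mir133a-1hg, host of the muscle microRNAs Mir133a-1 and Mir1a-2 inside Mib1, had 11.9 and 9.46 TPM from 99 and 76 counts, against 21.9 and 23.1 TPM for Mib1. Mature microRNAs are not measured by these tables. 1810032O08Rik, host of Snord1a, Snord1b and Snord1c, had 3.17 and 3.29 TPM. Snhg14, the imprinted host of 208 annotated small RNAs and the transcript that runs antisense into Ube3a in neurons, had 5.88 and 5.57 TPM, against 53.4 and 58.0 TPM for Ube3a. The transcript Snhg14-209 held 77.8% ± 0.785 of the TPM of Snhg14 in the first quantification (SD, n = 2) and 58.0% in the second.

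**Figure D2:**
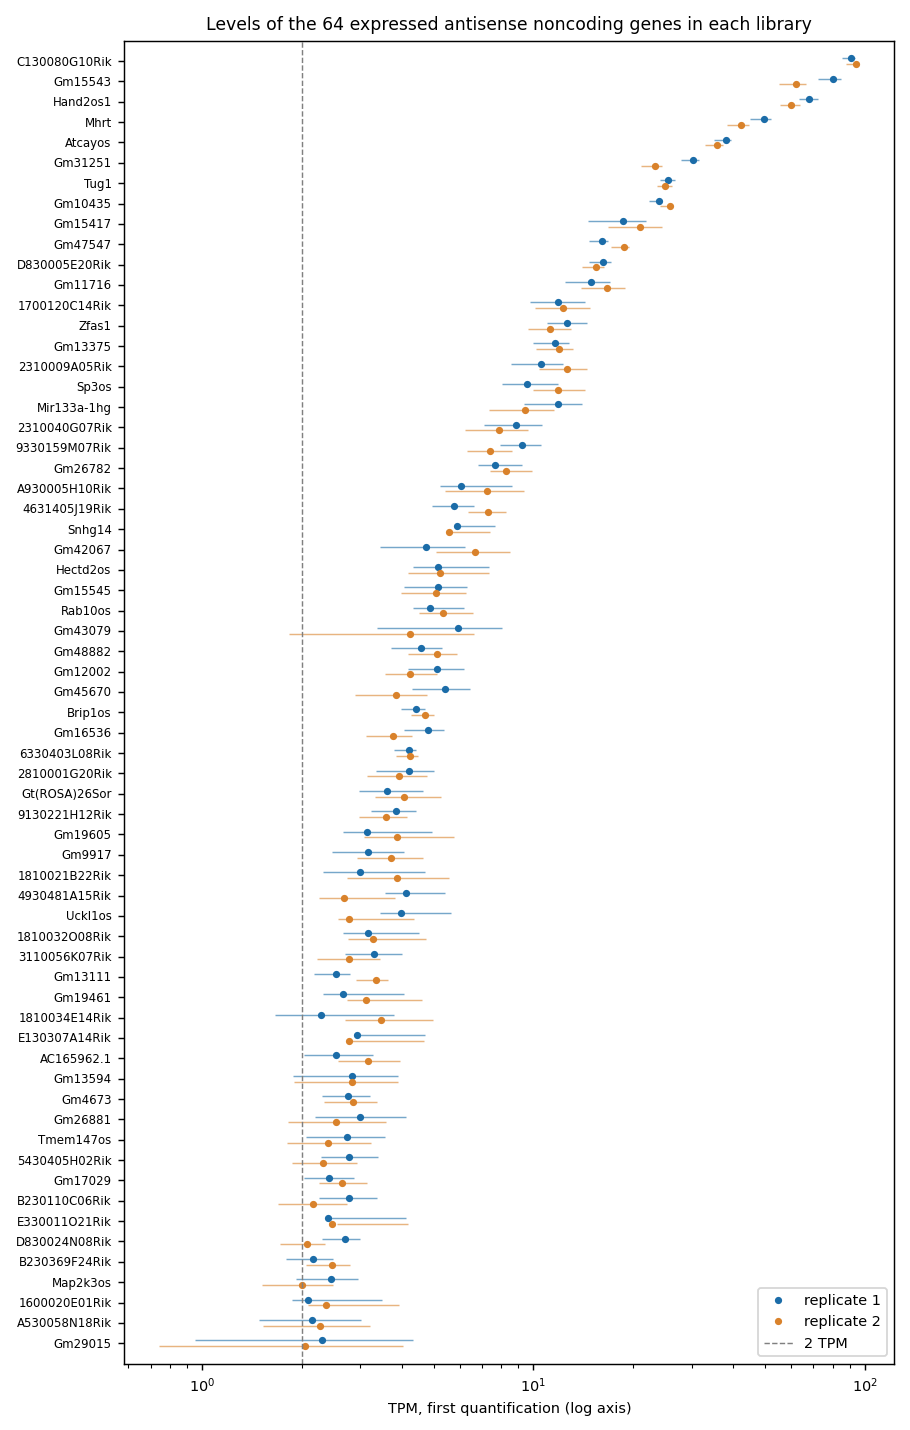
TPM of each of the 64 genes in replicate 1 (blue) and replicate 2 (orange) on a log axis, with the deposited interval of each value as a line and the limit of 2 TPM dashed. The first 18 genes have a mean above 10 TPM and the lower part of the list lies between 2 and 5 TPM; in most genes the lines of the 2 libraries overlap.

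Levels were uneven across the 64 genes. The 5 highest held 45.2% and 42.6% of their summed TPM in replicates 1 and 2, while the median was 4.65 and 4.24 TPM. The members nearest the limit from inside were Map2k3os (2.45 and 2.01 TPM), Gm29015 (2.31 and 2.05), D830024N08Rik (2.71 and 2.07), 1600020E01Rik (2.09 and 2.37) and A530058N18Rik (2.15 and 2.27). Just outside were Gm20522 (2.29 and 1.88 TPM), 0610040B10Rik (1.91 and 2.64), Rab26os (2.20 and 1.91), Gm45012 (1.93 and 2.07) and A630072M18Rik (2.06 and 1.97). With these 5, 20 antisense genes reached the limit in 1 library only, and 1835 of the 3064 (59.9%) had 0 counts in both, which allows up to 3 counts in each. For comparison, 1.92% of lincRNA genes (116 of 6032, Wilson interval 1.61 to 2.30%) and 46.9% of protein-coding genes (10332 of 22028) passed the same limit.

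The libraries gave close levels for the 64 genes. On log2 TPM, Pearson's r was 0.98 across them, a description over genes that share the 2 libraries. After the median log2 ratio of all genes was removed, 33 were higher in replicate 1 and 31 in replicate 2. Apart by at least 1.5-fold was 1 gene, 4930481A15Rik, against 3.37% of all 11100 genes at the limit. It had 4.13 TPM in replicate 1 and 2.68 TPM in replicate 2, from 168 and 96 counts, a ratio of 1.66 after scaling by the library totals of annotated genes (exact 95% interval 1.29 to 2.16, counting error only). It overlaps the 3' end of Drap1, a transcription corepressor subunit at 110.3 and 107 TPM. Replicate 1 also held the higher sum of lung epithelium markers given above, and their part in this difference was not tested. None of the 64 genes differed by 2-fold.

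Smaller differences were seen in other genes, and their number depends on the interval used. Besides Mhrt and Gm31251, the deposited intervals of Gm15543, Gm47547 and Gm13111 did not overlap between the libraries. In 16 of the 64 genes the interval of the count ratio, which covers counting error only, excluded 1. For neither count was the share of all genes at the limit taken, so neither is read as a trait of these genes. Gm15543 was 1.32-fold higher in replicate 1 after centring, Gm31251 1.33-fold and Mhrt 1.19-fold. In Gm47547 (1.14-fold) and Gm13111 (1.29-fold) replicate 2 was the higher one. Within 1.2-fold were 40 of the 64 genes (62.5%), against 79.9% of all genes at the limit. A mean under 50 counts was seen in 5 of the 64 genes.

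A gene on the opposite strand overlapped 57 of the 64 genes (89.1%), and each of these partners was protein-coding. The share was 41.5% among protein-coding genes and 33.6% among lincRNA genes at the limit. The type antisense already asks for a neighbour on the other strand, so a high share follows largely from the choice of genes. The overlap lay at the 5' end of the partner in 21, at its 3' end in 15 and inside it in 18, and 3 antisense genes covered it whole. The antisense gene was above its partner in both libraries in 15 pairs, below it in both in 39 and mixed in 3. Across all genes at the limit with such a partner, 79.8% were above it, and most of those are coding genes, so that share describes another kind of pair. At least 10-fold below were 10 genes, among them Mhrt, Gm31251 and Gm29015 under Myh7, A530058N18Rik under Actc1, 3110056K07Rik under the proteasome gene Psma3 and 4930481A15Rik under Drap1. The median log2 ratio of antisense gene to partner was -1.64. The levels of the 2 genes of a pair were not aligned: over 55 pairs with a partner above 0, Pearson's r of log2 mean TPM was -0.05 and Spearman's rank correlation -0.08, a description over genes measured in the same libraries.

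**Figure D3:**
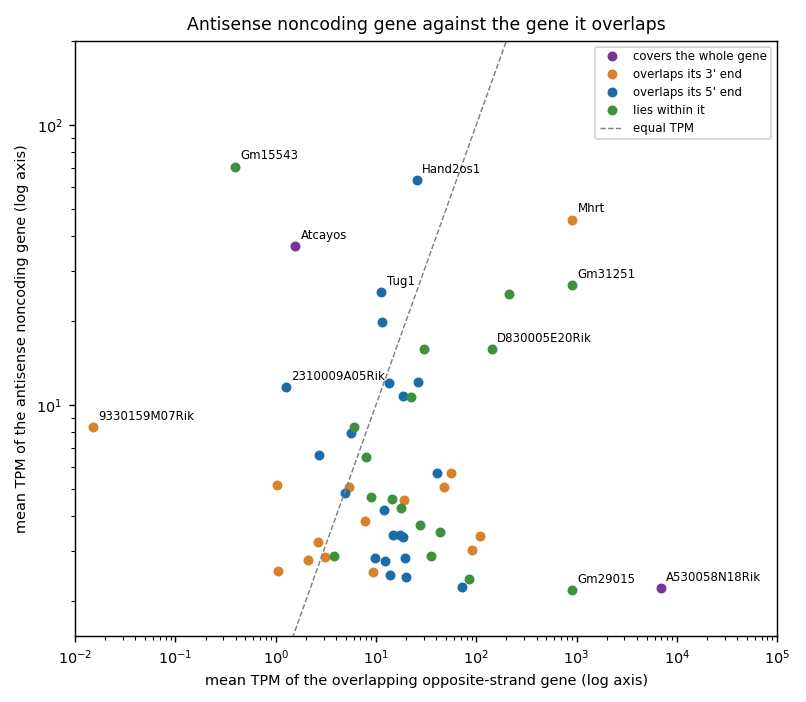
Mean TPM of the antisense gene against mean TPM of the opposite-strand gene it overlaps (both log axes, mean of the 2 libraries), coloured by how they overlap, with equality dashed; the 2 pairs whose partner was at 0 (Dydc2 and Gapdhs) are left out. Points lie on both sides of the line, with Gm15543 and 9330159M07Rik far above their partner and A530058N18Rik and Gm29015 far below.

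Overlapping exons raise the question whether reads of the partner were counted for the antisense gene. The labels name a spike-in profile for stranded libraries, and the deposited files listed include separate plus- and minus-strand signal tracks, which were not used. Exons of the opposite strand covered at least 100 exonic bases in 39 of the 64 genes, and 36 of these had whole expected counts in both libraries (within 0.005 of a whole number), which does not show the strand that a read came from. Mhrt, with 484 of 1214 exonic bases opposite exons of Myh7, had 865 and 731 counts, against 35772 and 35274 for Myh7. In a wider check, 4 antisense genes of any level had at least 90% of their exonic bases opposite exons of a gene at 100 TPM or more. Their median was 0.035 TPM and the highest 0.845 TPM, at most 0.475% of the partner, and 2 of them had 0 counts. Mhrt was at 5.41% and 4.74% of Myh7, while Gm29015 lay below that highest share, at 0.252% and 0.229% of Myh7. A530058N18Rik, at 0.0323% and 0.0315% of Actc1, shares no exonic base with it. Whether reads from the opposite strand were counted for any of the 64 genes was not tested. Reads shared along 1 strand are another matter. Counts were not whole in 7 of the 64 genes: C130080G10Rik, A530058N18Rik, Tug1, Gm47547, 9330159M07Rik, Tmem147os and Gm43079. Counts that are not whole did not always go with exonic bases shared on 1 strand. Gm47547 shares no such base with another gene, while Hand2os1 (533 bases shared) and Zfas1 (189) had whole counts. Where the divided reads of each gene came from was not tested. Gm43079 (5.91 and 4.23 TPM) lies with all 559 exonic bases in exons of the coding gene Acad9 on the same strand, so its level cannot be told apart from that of Acad9.

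A start on the opposite strand within 1000 bases was annotated for 41 of the 64 genes (64.1%), against 29.7% of all genes at the limit. The share was 38.2% (1146 of 3000) among antisense genes below the limit and 26.7% (31 of 116) among lincRNA genes above it. The type antisense already asks for a neighbour on the other strand, and the shares were not tested. The distance is that between the nearest annotated starts, and the sets were not matched for how fully their genes are annotated. Median exonic length was 2554 bases in the 64 genes and 940.5 in antisense genes below the limit. In lincRNA genes above the limit it was 2400. In 31 of the 41 the starts lay apart and in 10 the 5' ends overlapped; the median distance was 111 bases, and 32 lay within 200. The neighbours were protein-coding in 40 cases and at the limit themselves in 37. Examples of short distances are 2810001G20Rik, 16 bases from Cox10, an enzyme of heme A synthesis for cytochrome oxidase, and Tmem147os, 39 bases from Tmem147. 2810001G20Rik had 4.21 and 3.94 TPM, against 28.2 and 25.2 TPM for Cox10. Tmem147os had 2.73 and 2.40 TPM, against 99.6 and 103 TPM for Tmem147, and the gene it overlaps, Gapdhs, was listed at 0. Map2k3os had 2.45 and 2.01 TPM, against 32.6 and 30.2 TPM for Map2k3, a kinase upstream of p38, which starts 166 bases away.

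In most of these 41 pairs, with starts apart or 5' ends overlapping, the antisense gene was the lower one. For Gm29015 the start counted lies inside Myh7 and not at its 5' end, while the level compared is that of all of Myh7. It was below its neighbour in both libraries in 32 of 41 and above in 9. The 9 were Hand2os1, Tug1, Gm15417, 2310009A05Rik, Gm26782, A930005H10Rik, Brip1os, A530058N18Rik (over Gjd2, which was at 0.01 and 0 TPM) and 9330159M07Rik. Brip1os had 4.43 and 4.72 TPM, against 0.32 and 0.27 TPM for Brip1, a helicase of DNA repair. A930005H10Rik had 6.04 and 7.25 TPM, against 3.01 and 2.43 TPM for Dph5. The 41 genes had a median of 3.45 TPM (mean of the libraries), against 5.19 TPM for the other 23.

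The promoter windows of the genes with an opposite-strand start within 1000 bases held more CG dinucleotides. These windows often take in the start of the coding neighbour as well. In 18 of these genes with a window the median was 18.5 CG in 300 bases, against 5 in 10 of the other genes and 7 over all 32817 RefSeq windows. Above 7 were 17 of the 18 and 4 of the 10. Hand2os1 had 23 and Map2k3os 30, while C130080G10Rik, the exception, had 2, and Mhrt had 1. On either strand, GGGCGG stood in 10 of the 18 windows and 3 of the 10, against 35.6% of all windows. CCAAT stood in 9 and 4, against 37.4%, and TATAAA in 1 and 1, against 13.6%. No motif contains another, and a match is a run of letters and not a bound site.

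**Figure D4:**
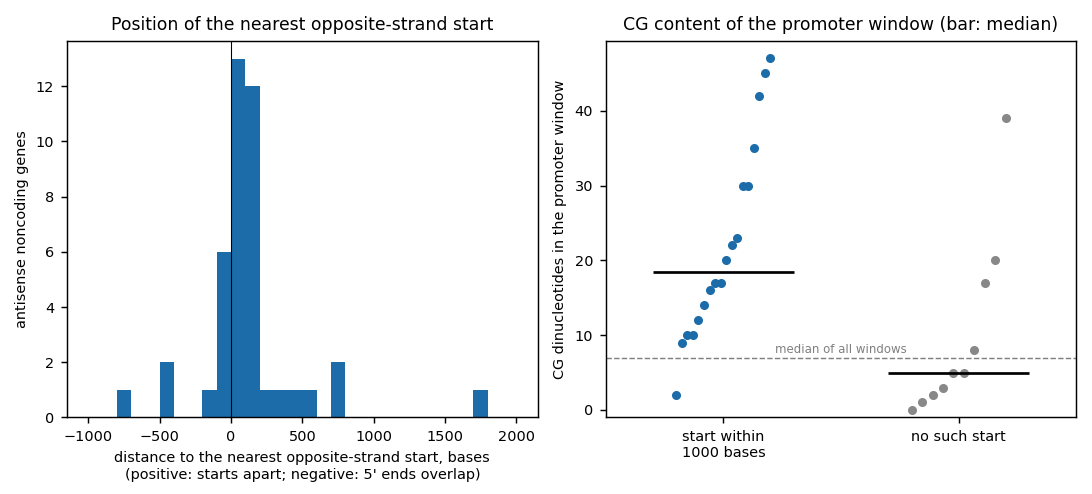
Left, distance in bases from the start of each antisense gene to the nearest opposite-strand start, shown for the genes with one within 2000 bases. Right, CG dinucleotides in the 300-base promoter window of genes with such a start within 1000 bases and of the other genes, with medians as bars (18.5 and 5) and the median of all windows (7) dashed. Most distances lie within 200 bases of 0.

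A second quantification, made by another program on transcripts, gave mostly higher levels, within 2-fold for most genes. Within 2-fold of the first were 57 of the 64 genes (89.1%), against 93.9% of all genes at the limit. Within 1.5-fold were 43 of the 64. The second was higher in both libraries in 57 and lower in both in 4. The median ratio was 1.32, against 1.19 over all genes at the limit and 1.26 over lincRNA genes at the limit. The share of all genes higher in both was not taken, so the count of 57 is not read as a trait of these genes. Still at 2 TPM or more were 62. The 3 genes more than 2-fold lower in the second quantification were short, but not all short genes were lower there. Gm13594, of 476 bases, rose from a mean of 2.83 TPM in the first to 5.66 TPM in the second. Gm11716, of 470 bases, rose from a mean of 15.8 to 20.5 TPM. Gm15543, of 361 exonic bases, had 80.0 and 62.0 TPM from 589 and 441 counts in the first quantification, and 22.9 and 16.1 TPM from 58 and 37 counts in the second. Mir133a-1hg, of 395 bases, had 11.9 and 9.46 TPM in the first and 2.68 and 3.28 TPM in the second. Gm29015, of 207 bases, was listed at 0 in both libraries in the second. The second place of Gm15543 among the 64 therefore holds in 1 quantification alone. The genes raised most were A530058N18Rik (6.45 and 7.38 TPM in the second), Gm26782 (16.1 and 19.5), Gm43079 (12.1 and 9.44), Tmem147os (5.51 and 5.23) and Gm13594 (6.27 and 5.05). Mhrt was also higher there, at 89.9 and 82.7 TPM. The other 2 of the 5 lowest ratios were those of 1810034E14Rik (1.28 and 3.26 TPM in the second, 2.29 and 3.48 in the first) and Uckl1os (3.52 and 3.26 in the second, 3.99 and 2.77 in the first).

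**Figure D5:**
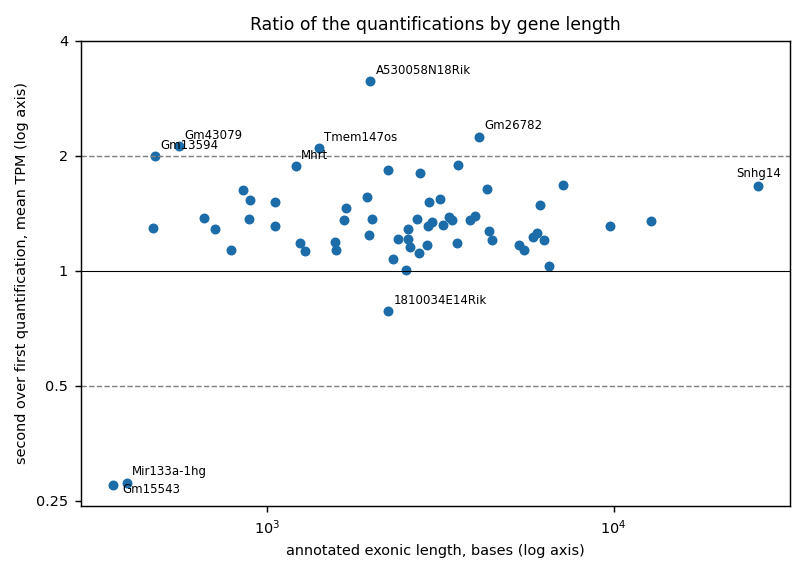
Ratio of the second to the first quantification (mean TPM, log axis) against annotated exonic length (log axis) for 63 of the 64 genes; Gm29015, at 0 in the second, is left out, the solid line is a ratio of 1 and the dashed lines are 2-fold limits. The 2 lowest points, Gm15543 and Mir133a-1hg, are the shortest genes plotted.

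Transcript shares were settled for some genes and not for others. A single transcript was annotated in 16 of the 64 genes. The same transcript led in both libraries in 40 of the other 48. Over the mean of the libraries, the leading transcript took 50% or more in 32 of the 48, and in 33 it also led in the second quantification. In the first quantification Mhrt-201 held 73.6% ± 2.68 of Mhrt and D830005E20Rik-201 82.7% ± 0.742 of D830005E20Rik (SD, n = 2). In the second they held 52.9% and 75.3%, so the share of Mhrt-201, with Mhrt-202 at 47.1% there, depended on the program. C130080G10Rik-202 held 54.1% ± 2.11. Tug1-203 led Tug1 with 31.5% ± 4.46 in the first quantification, while Tug1-205 led in the second. A transcript with a retained intron led 9330159M07Rik in both libraries and in the second quantification. In Gm19605 such a transcript led over the mean of the libraries, at 26.4% against 26.2% for Gm19605-203. Gm19605-203 led in replicate 2, and Gm19605-202 in the second quantification, so the leading transcript of Gm19605 is not settled.

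Genes that clear or process such RNAs were expressed. Of 26 listed genes of the RNA exosome and nuclear RNA turnover, 24 had a row under the symbol listed and 23 were at 1 TPM or more, with medians of 9.28 and 9.70 TPM. Exosc10, the nuclear exoribonuclease, had 19.5 and 18.8 TPM, Srrt, a cap-binding cofactor, 35.5 and 33.6 TPM, and Mtrex, the exosome helicase, 10.2 and 10.95 TPM. Exosc6 was listed at 0 in both. A list of 24 noncoding RNAs named in the literature, not all of them antisense, had 16 with a row and 6 at 1 TPM or more. Of these, Hand2os1, Mhrt and Zfas1 are among the 64 genes, and antisense genes on the list such as Wt1os (0.16 and 0.36 TPM), Hoxb3os (0.46 and 0.45) and Dnm3os (0.91 and 1.00) were below the limit.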

How the data were processed

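Total RNA of heart was sequenced in 2 libraries. Per the file headers, the gene table holds expected counts, estimated by the authors' program and not normalized, and TPM scaled by effective length. The deposited TPM carries a posterior mean and the bounds of an interval for 1 library, a score of precision per the file headers. The deposited transcript tables add a percent, the part of the gene's TPM that each transcript takes, and the other deposited transcript tables, with kallisto's column names, hold estimated counts and TPM that were summed per gene (the second quantification). The deposited readme files name mm10 and GENCODE M21. The sources used here do not name the aligner, the programs or how CAST/EiJ alleles were handled.

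GENCODE M21 gave each gene's position, type and strand, matched on the identifier. The partner is the overlapping opposite-strand gene with the highest mean TPM. Ratios between libraries were centred on the median of all genes at 2 TPM or more, and count ratios have exact Clopper-Pearson 95% intervals. Intervals and the limit for a count of 0 (3 counts) cover counting error only. Scaling alternatives used edgeR 4.0.16 and DESeq2 1.42.0 under R 4.3.3 (Python 3.11.15, pandas 2.3.3). The partner and distance code was checked on constructed examples with known answers. With 1 group no test was made. The genes and lists were chosen with earlier results of these data known. Genes are named by rule: the 20 highest, those 1.5-fold apart, the 5 nearest the limit on each side, the 5 highest and lowest ratios between quantifications, the 5 highest ratios to the partner, and those in or beside a listed gene. Others, such as the examples of starts close together, hosts and members with intervals apart, were chosen after their values were seen. The opposite-strand gene of Gm10435 is not reported here.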

Additional observations from a re-analysis of the deposited data

How the results depend on the processing

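With limits of 1 and 5 TPM, 115 and 26 antisense genes passed in place of 64. The second quantification gave 90, posterior mean TPM 69 and the annotation's own gene type antisense 50. Leaving out 1 library at a time gave 73 to 75 genes, 16 to 17 above their partner and 56 to 57 within 2-fold between the quantifications. At least 1.5-fold apart were 2 genes with TMM scaling and 2 with DESeq2 size factors on expected counts (4930481A15Rik and 1810034E14Rik), 3 in the second quantification (those and 2310009A05Rik), 0 on log2(TPM + 1) and 0 at a fold of 2. On expected counts, which are not scaled by length, 9 genes were above their partner in place of 15. The cause was not tested. The number of genes with an opposite-strand start nearby stayed within 1.5 times at 500 and 2000 bases (37 and 42). Of the mean TPM values of the 64 genes, 54 moved by more than 1 SD in the second quantification and 12 with posterior mean TPM. No paired analysis was possible because the series holds 1 group. Depth limits Gm29015 most, with 7 and 6 counts in replicates 1 and 2.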
